A study of Mus musculus with 99 samples.

Results

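The genes described here are those of the efferent synapse of cochlear hair cells: the nicotinic receptor subunit genes Chrna9, Chrna10, Chrna1, Chrnb1, Chrnd and Chrng, the receptor anchor gene Rapsn, and the small-conductance potassium channel genes Kcnn1, Kcnn2 and Kcnn3. They were chosen by name, as 10 of the 55291 gene symbols of the count table. All 10 are in the table, and 9 had enough reads for a ratio between the groups; Kcnn3 had none.

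Full-length cDNA was sequenced from 99 hand-picked cochlear cells from C57BL/6 mice. The first group held 32 wild-type outer hair cells (OHCs) at postnatal day 30, of the genotype Slc26a5-CreER/+; Ai9/+, in which an inducible Cre active in OHCs switches on the red protein tdTomato. The second held 67 cells at postnatal day 42, of the genotype Slc26a5-CreER/+; Rosa26Tbx2/+, in which the same Cre switches on the transcription factor Tbx2; the labels call them converted inner hair cells (cIHCs). Both groups carry 1 copy of Slc26a5-CreER, and no endogenous inner hair cell is among the titles. The labels' protocol, the same for all 99 cells, instead speaks of inner hair cells and of a cell type it abbreviates iOHC; titles, source names and genotypes were followed. Genotype and age differed together, so their parts in any difference below cannot be told apart. No animal is named in the labels. Each group was therefore summed to 1 sample and no test was possible. Intervals of CPM and of ratios cover the counting error of reads only, because each group is 1 sample. No removal of PCR copies is stated, and copies left in are counted as separate reads. These intervals are then too narrow even for the counting of molecules. Intervals of shares of cells treat the cells as independent draws, although some may come from the same animal, and do not cover differences between animals.

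Efferent neurons of the brainstem release acetylcholine onto hair cells. On OHCs it opens a receptor built from the products of Chrna9 and Chrna10, calcium enters, and the calcium opens SK2 channels, the product of Kcnn2, so that the cell is inhibited. Inner hair cells carry this synapse before hearing begins and lose most of the response as they mature, whereas OHCs keep it through adult life. Chrna1, Chrnb1, Chrnd and Chrng encode the subunits of the fetal receptor of skeletal muscle, and Rapsn encodes rapsyn, which clusters that receptor under the nerve ending.

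An OHC had 5656512 to 9287413 counts and a cIHC 4677682 to 13792672. A median of 6068.5 genes had reads in an OHC and 8546 in a cIHC, so a share of cells with reads is not on equal footing at low levels. The groups matched their labels in direction on 3 hair cell genes. Slc26a5 ran from 994.4 to 2913 CPM (a gene's reads per total reads of the cell, on the usual scale of the unit) in single OHCs and from 0 to 13.3 CPM in cIHCs. Ocm, another OHC marker, held 17896 CPM in the lowest OHC and 4718 CPM in the highest cIHC. Otof ran from 299.3 to 6075 CPM in cIHCs, a range that includes its pooled OHC level of 542.8 CPM, and its pooled cIHC level was 2956 CPM. Xist reached 10 CPM in 4 OHCs and 55 cIHCs, and Y-linked genes in 24 OHCs and 12 cIHCs; 0 cells had both, so each group held cells of female and of male mice in unequal numbers.

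Promoter sequences are shown for Chrna9 and Chrna10, the receptor pair that was lower in cIHCs, and for Chrna1, the subunit gene that was higher with the most reads, because the cIHCs express a T-box factor. Each is the 250 bases before the RefSeq start on GRCm38.p6, written 5′ to 3′ on the gene's strand, with the 5 letters GGTGT of the T-box core, or their reverse complement ACACC, in capitals.
Chrna9, chr5:65966874-65967123, plus strand: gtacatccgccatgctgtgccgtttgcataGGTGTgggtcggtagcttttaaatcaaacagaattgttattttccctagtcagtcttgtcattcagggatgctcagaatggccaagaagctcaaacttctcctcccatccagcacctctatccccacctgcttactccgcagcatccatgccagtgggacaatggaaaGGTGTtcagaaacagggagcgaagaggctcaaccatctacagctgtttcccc
Chrna10, chr7:102116714-102116963, minus strand: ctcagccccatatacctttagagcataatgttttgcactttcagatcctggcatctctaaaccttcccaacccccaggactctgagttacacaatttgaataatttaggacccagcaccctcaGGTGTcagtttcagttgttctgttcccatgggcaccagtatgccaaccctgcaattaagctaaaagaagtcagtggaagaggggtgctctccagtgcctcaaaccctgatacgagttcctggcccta
Chrna1, chr2:73580339-73580588, minus strand: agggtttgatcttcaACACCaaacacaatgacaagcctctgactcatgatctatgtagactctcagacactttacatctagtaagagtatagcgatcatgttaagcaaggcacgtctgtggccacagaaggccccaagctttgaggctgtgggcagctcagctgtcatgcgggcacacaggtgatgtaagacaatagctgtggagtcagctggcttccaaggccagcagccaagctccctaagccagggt
The core starts 220 and 52 bases before the start of Chrna9, 127 bases before that of Chrna10, and 235 bases before that of Chrna1, there on the opposite strand. These starts are RefSeq's, and that of Chrna1 is also the start in GENCODE M21. The other starts differ: the Chrna9 window lies inside the longer GENCODE gene, and the Chrna10 window overlaps a GENCODE first exon. RefSeq promoters were matched for 7 of the 10 genes, in 8 windows, and 5 windows hold GGTGT on either strand, as do 36.2% of the 32851 promoter windows of this length. The full half-site AGGTGTGA, which contains the core, is in 0 of the 8 windows and in 1.12% of all windows. A match is a description of the letters, and its absence says nothing of the factor.

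Chrna9, the subunit that can form a receptor on its own and carries much of the acetylcholine site, was lower in cIHCs but present in nearly all of them. The gene lies on the plus strand at chr5:65934921-65977326 (GRCm38, GENCODE M21, as for all genes below), and each count is taken as a read over its exons. It ran from 71.5 CPM through a median of 727.3 to 1658 CPM in the 32 OHCs. In the 67 cIHCs it ran from 0 through a median of 196.6 to 625.3 CPM, and 66 of 67 cells had reads. The groups overlapped: 20 OHCs lay above the highest cIHC and 10 cIHCs below the lowest OHC. Pooled over each group, the level was 822.9 CPM (exact Poisson 95% interval 819.3 to 826.5) and 223.7 CPM (222.4 to 224.9), 3.68-fold lower in cIHCs. The log2 ratio was -1.88 (95% interval -1.89 to -1.87), and in 11.1% of all pairings of a cIHC with an OHC the cIHC was the higher cell.

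Chrna10, the partner subunit that gives the receptor its full current, had no read in most cIHCs. It lies on the minus strand at chr7:102111266-102116828. The OHCs ran from 117.2 through a median of 496.4 to 880.8 CPM, with reads in all 32. Only 17 of 67 cIHCs had reads, 25.4% (exact Clopper-Pearson 95% interval 15.5 to 37.5), and 9 of them reached 10 CPM, so the median cIHC was at 0. The groups overlapped at their edges: 65 of 67 cIHCs lay below the lowest OHC, and the highest cIHC held 201.2 CPM. That cell held 31% of the 4717 cIHC counts. The pooled level was 507.5 CPM (504.6 to 510.3) in OHCs and 8.67 CPM (8.43 to 8.92) in cIHCs, 58.5-fold lower, a log2 ratio of -5.87 (-5.91 to -5.83), or -6.36 with the highest OHC and the highest cIHC left out.

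The counts of Chrna10 are uncertain in 1 respect. In GENCODE M21, 1025 of its 2628 exon bases, 39%, are shared with Art1 on the other strand, and the use of strand in the counting is not stated. Art1, which encodes an ADP-ribosyltransferase, ran from 0 through a median of 41.6 to 154.0 CPM in OHCs, and 2 of 67 cIHCs had reads of it. Its pooled level was 54.1 CPM and 0.316 CPM, a log2 ratio of -7.42 (-7.64 to -7.20). Per kilobase of exon, pooled Art1 stood at 0.0997 of Chrna10 in OHCs and 0.0341 in cIHCs. Reads of the 2 genes in the shared bases cannot be told apart, and their part in either level was not tested.

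**Figure D1:**
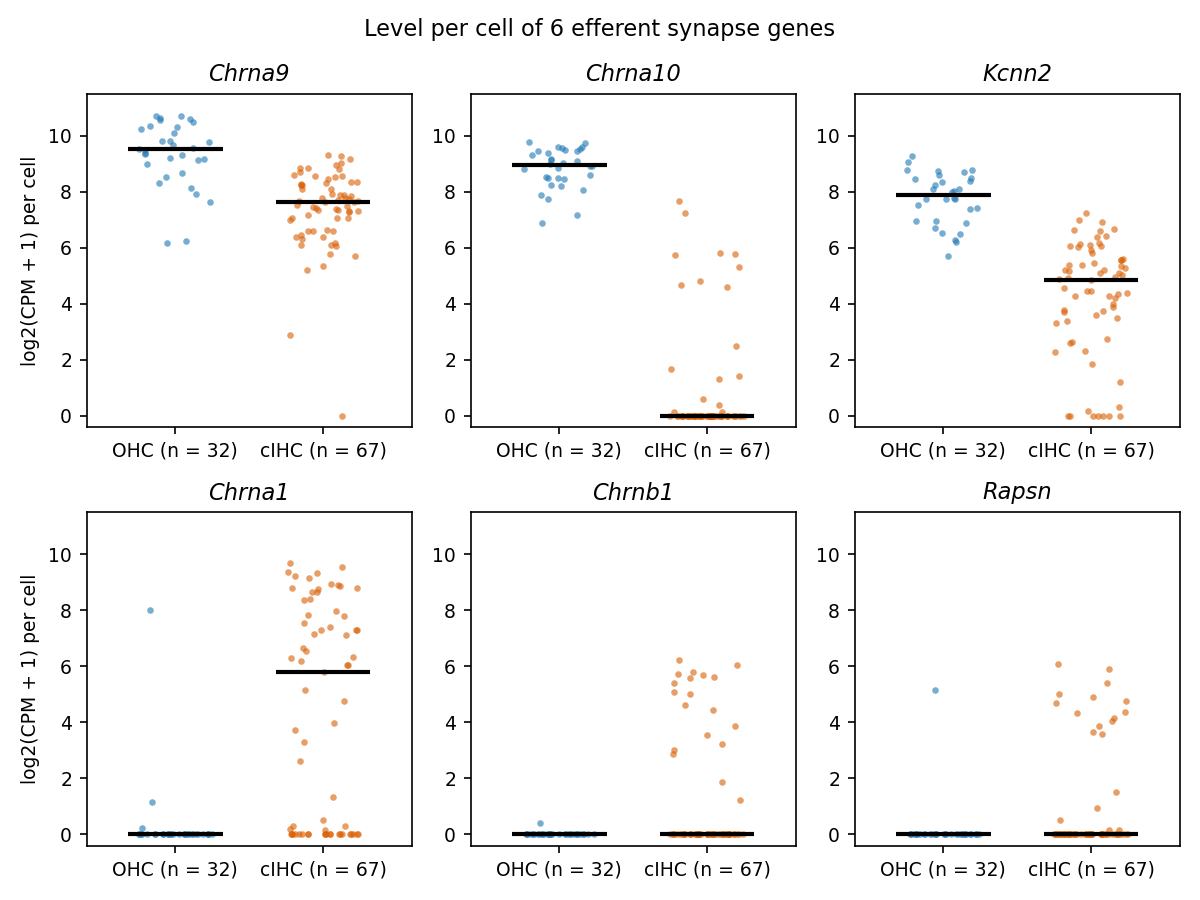
Level per cell, as log2(CPM + 1), of 6 genes in 32 OHCs and 67 cIHCs; each point is 1 cell and the black line is the median. Chrna9 is lower in cIHCs with a wide overlap, Chrna10 sits at 0 in 50 of 67 cIHCs, and Chrna1 has reads in 46 cIHCs and 3 OHCs.

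The balance of the 2 receptor subunits differed between the groups. Per kilobase of merged exon, pooled Chrna10 stood at 0.710 of Chrna9 in OHCs and at 0.0446 of Chrna9 in cIHCs. In single OHCs this ratio ran from 0.204 through a median of 0.632 to 8.21, and Chrna10 was the higher of the pair in 12 of 32 cells. Among the 66 cIHCs with Chrna9 reads it was 0 in 49 and above 1 in 3. Reads of Chrna9 and Chrna10 together were present in 32 of 32 OHCs and in 17 of 67 cIHCs. Within OHCs the levels of the pair did not move together from cell to cell, with a Spearman rho of -0.15 over 32 cells.

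**Figure D2:**
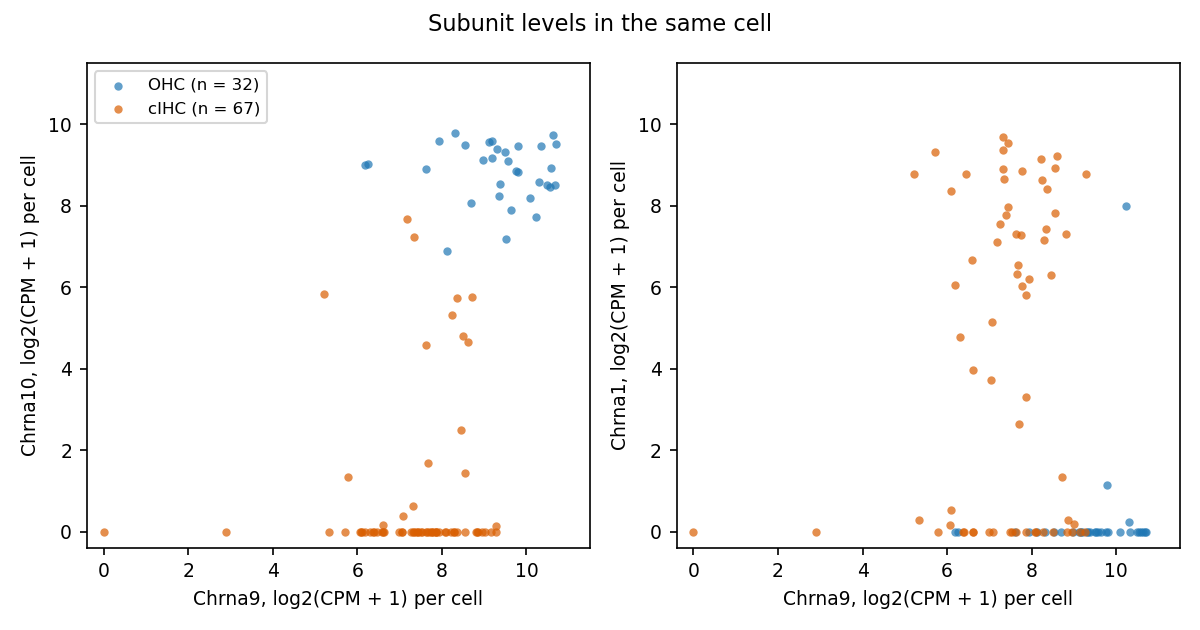
Chrna10 (left) and Chrna1 (right) against Chrna9 in the same cell, as log2(CPM + 1), for 32 OHCs and 67 cIHCs. Most cIHCs have reads of Chrna9 and lie on the zero line for Chrna10, while Chrna1 is on the zero line in 29 of 32 OHCs and 21 of 67 cIHCs.

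Kcnn2, which encodes the SK2 channel that turns the calcium entry into inhibition, lay between the 2 subunits in the size of its difference. The OHCs ran from 51.2 through a median of 234.5 to 615.6 CPM. The cIHCs ran from 0 through a median of 27.6 to 148.8 CPM, with reads in 60 of 67 cells, 89.6% (79.7 to 95.7), and 10 CPM or more in 49. The groups overlapped at their edges, with 51 of 67 cIHCs below the lowest OHC and 23 of 32 OHCs above the highest cIHC. The pooled level was 253.4 CPM (251.4 to 255.4) and 34.1 CPM (33.6 to 34.6), 7.43-fold lower in cIHCs, a log2 ratio of -2.89 (-2.92 to -2.87). Exons of Kcnn2 share 284 of 7468 bases with A330093E20Rik on the other strand, which held 3040 counts in OHCs and 207 in cIHCs. They also share 323 bases with the pseudogene AC121957.1 on the other strand, which is not among the counted symbols.

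The other 2 channel genes had few reads. Kcnn1 (chr8:70842049-70863258, minus strand), which encodes SK1, had reads in 3 of 32 OHCs and 7 of 67 cIHCs, with highest cells of 227.9 and 69.4 CPM and medians of 0 in both groups. The highest OHC accounted for 64.5% of its group's reads. Its pooled level of 13.2 and 3.00 CPM gave a log2 ratio of -2.14 (-2.22 to -2.05), but -1.11 without the highest cells. The 4 OHCs with Xist reads held no Kcnn1 read, where the ratio was at least 4.33. So few OHCs cannot set a direction for a gene read in 3 of 32. Kcnn3, which encodes SK3, had no read in either group: 0 of 32 OHCs leaves room for as many as 9.38% of such cells having reads, and 0 of 67 cIHCs for 4.48%, by the limit of 3 cells out of the number examined.

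Chrna1, the muscle-type subunit gene with an acetylcholine site, was higher in cIHCs. It lies on the minus strand at chr2:73563215-73580338. Reads were present in 3 of 32 OHCs, with levels up to 254.9 CPM, and 1 of them held 99.5% of the 2063 OHC counts; the next highest OHC was at 1.22 CPM. The cIHCs ran from 0 through a median of 55.1 to 825.7 CPM, with reads in 46 of 67, 68.7% (56.2 to 79.4), and 10 CPM or more in 38. The groups overlapped, since 21 cIHCs had no read, and 16 cIHCs lay above the highest OHC. The pooled level was 8.52 CPM (8.16 to 8.90) and 154.5 CPM (153.5 to 155.6), a log2 ratio of 4.18 (4.12 to 4.24), which became 11.72 without the highest cells, where 10 OHC counts were left.

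The other muscle-type genes were found in fewer cells. Chrnb1 (chr11:69784036-69795943, minus strand), the beta subunit of the muscle receptor, held 3 counts in 1 OHC and 4947 counts in 19 of 67 cIHCs, 28.4% (18 to 40.7), up to 73.3 CPM. Its pooled level of 0.0124 and 9.09 CPM gave a log2 ratio of 9.52 (7.97 to 11.80), and all 19 cells lay above the highest OHC. Rapsn (chr2:91035620-91045729, plus strand) had 288 counts in 1 OHC and 3093 counts in 19 cIHCs, up to 66.2 CPM. Its log2 ratio was 2.26 (2.08 to 2.44), or at least 8.50 without the highest cells, where no OHC read was left.

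Chrnd and Chrng, the delta and gamma subunits that complete the fetal muscle receptor, were each carried by 1 cIHC. They are neighbours on the plus strand, at chr1:87190607-87200070 and chr1:87204657-87212694. Chrnd had 2 counts in 1 OHC and 251 counts in 1 cIHC, a log2 ratio of 5.80 (3.94 to 8.86). Chrng had no read in any OHC and 165 counts in 1 cIHC, a log2 ratio of at least 4.61 when the OHC sum is set to 3 counts. Without those single cells neither gene had a read in cIHCs. No cell had reads of all the muscle-type genes. Of the 5 genes Chrna1, Chrnb1, Chrnd, Chrng and Rapsn, 34 cIHCs had reads of 1, 23 of 2 and 2 of 3, and 8 had none. Chrna1, Chrnb1 and Rapsn were read together in 2 of 67 cIHCs, and Chrna1 with Chrnb1 in 14.

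**Figure D3:**
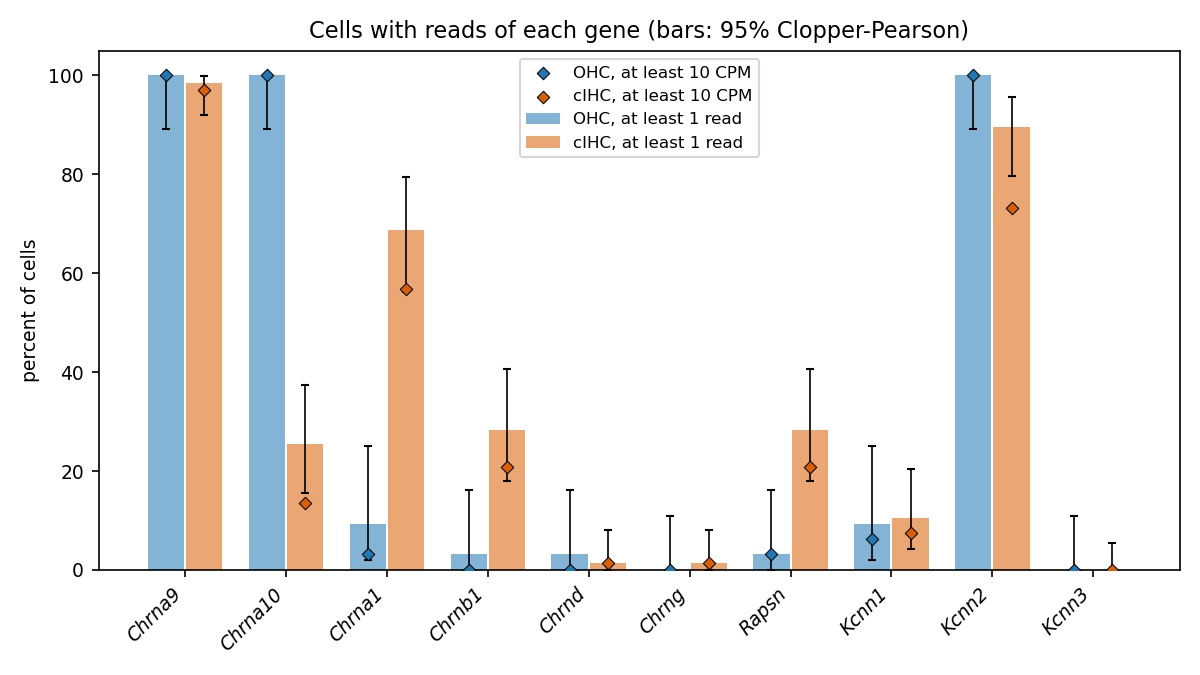
Percent of OHCs and cIHCs with at least 1 read of each gene (bars, with exact Clopper-Pearson 95% intervals) and with at least 10 CPM (diamonds). Chrna9 and Kcnn2 are read in most cells of both groups, Chrna10 in 100% of OHCs and 25.4% of cIHCs, and Chrna1 in 9.38% of OHCs and 68.7% of cIHCs.

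Markers of muscle and nerve give the levels to set beside these reads. The 11 skeletal muscle genes summed to a median of 0 CPM in an OHC (range 0 to 166.0) and 1.20 CPM in a cIHC (0 to 145.6), and their pooled sum was lower in cIHCs, at 16.9 against 29.2 CPM. Of the 11 genes, Ckm, Myh1, Myh2 and Myod1 had no read in any cell and 7 had a ratio, with a median log2 ratio of 0.61. At least 2-fold higher in cIHCs were Acta1, Tnni2 and Myog, and lower were Mylpf and Actn3. Acta1, the actin of muscle fibres, had no read in OHCs and 878 counts in 2 cIHCs, a log2 ratio of at least 7.02. Myog, a muscle transcription factor, had reads in 28 cIHCs and 2 OHCs, at 2.15 and 0.211 CPM. Of the efferent terminal genes, Chat held 9 counts in OHCs and 5 in cIHCs, Slc18a3 none, and Slc5a7 none in OHCs and 2 counts in cIHCs. The whole list of 10 neuron and efferent terminal genes went mostly the other way. In it 7 genes had a ratio, 5 at least 2-fold higher in cIHCs and 1 lower, with a median log2 ratio of 3.20. Over all genes with a ratio, 42.6% were higher and 18.8% lower. Pooled sums over 10 supporting cell genes, all of them read in some cell, were 41.1 CPM in OHCs and 24.8 CPM in cIHCs (cell ranges 0 to 896.7 and 0 to 866.2). Over all 10 genes of neurons and efferent terminals, 2 of them without a read, the sum ran from 0 through 244.9 to 910.1 CPM in OHCs and from 164.1 through 545.1 to 879.1 CPM in cIHCs. The 5 glial genes had pooled sums of 14.3 and 8.19 CPM. For 8 markers of blood cells and macrophages, 3 of them without a read, these sums were 4.41 and 53.4 CPM. The part of these cells in the differences above was not tested.

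Taking the 9 genes with a ratio together, 4 were at least 2-fold lower in cIHCs (Chrna9, Chrna10, Kcnn1 and Kcnn2), against 18.8% of the 23306 genes with a ratio. At least 2-fold higher were 5 (Chrna1, Chrnb1, Chrnd, Chrng and Rapsn), against 42.6% of all genes, so 5 of 9 is not far from the background. Their median log2 ratio was 2.26, beside 0.58 over all genes. At least 10 CPM in 1 or both groups was reached by 5 of the 10, of which Chrna10, Kcnn1 and Chrna1 passed only through the group where they were high. Over the 10041 genes that passed, 14.3% were lower and 26.3% higher, and nothing is read from these shares for the 5 genes. Kcnn1 counts among the lower genes through few cells, as given above. In the share of cells at 10 CPM, Chrna1 and Chrnb1 were at least 20 percentage points higher in cIHCs, as were 25.8% of genes. Chrna10 and Kcnn2 were at least 20 points lower, as were 2.33% of genes. Among these genes none had every cIHC below every OHC, against 0.0896% of the 10041 genes, and none had every cIHC above every OHC, against 0.0797%.

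**Figure D4:**
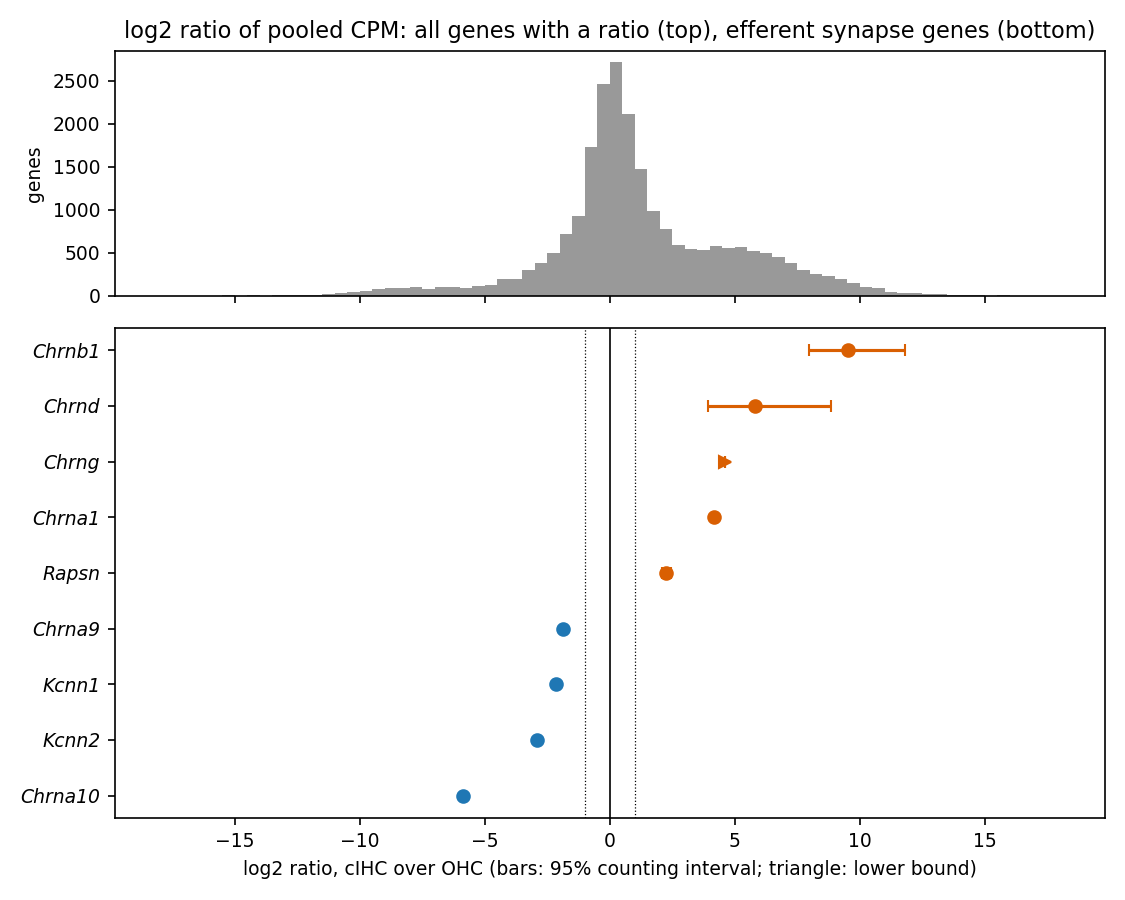
Top, histogram of the log2 ratio of pooled CPM, cIHC over OHC, for 23306 genes. Bottom, the same ratio for 9 efferent synapse genes with 95% counting intervals (Chrng is a lower bound), dotted lines at 2-fold: 4 genes lie below and 5 above.

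The order of levels changed as well. By pooled CPM per kilobase of merged exon, OHCs had 271.9 for Chrna9, 193.1 for Chrna10, 33.9 for Kcnn2, 2.88 for Kcnn1, 1.94 for Chrna1 and 0.660 for Rapsn. In cIHCs the order by CPM per kilobase was 73.9 for Chrna9, 35.2 for Chrna1, 4.57 for Kcnn2, 3.59 for Chrnb1, 3.30 for Chrna10, 3.16 for Rapsn and 0.654 for Kcnn1. Chrna9 was first in both groups, while Chrna10 stood next to it in OHCs but behind Chrna1, Kcnn2 and Chrnb1 in cIHCs. Neighbours such as Chrnb1, Chrna10 and Rapsn in cIHCs each rest on 17 to 19 cells and overlapped from cell to cell. In OHCs 1 cell held 64.5% of the counts of Kcnn1, 99.5% of those of Chrna1 and 100% of those of Rapsn. Nothing is read from the order of these 3 in OHCs.

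Cells of both sexes gave the same direction for the genes with most reads. In the 4 OHCs and 55 cIHCs that had Xist reads, pooled Chrna9 was 685.6 and 229.0 CPM, Chrna10 391.1 and 9.82 CPM, and Kcnn2 164.6 and 34.6 CPM. In the 24 OHCs and 12 cIHCs that had Y-linked reads, pooled Chrna9 was 883.7 and 193.0 CPM, Chrna10 526.0 and 2.05 CPM, and Kcnn2 278.6 and 31.2 CPM. Chrna1 had no read in the 4 OHCs with Xist reads and 155.9 CPM in the 55 cIHCs. In the cells with Y-linked reads Chrna1 stood at 11.3 CPM for OHCs against 146.6 CPM for cIHCs.

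Genes that work with the receptor and the channel were described from lists given in full. Over all genes with a ratio, 42.6% were at least 2-fold higher and 18.8% lower, with a median of 0.58, and no list below is called different from that. Of 10 other nicotinic subunit genes, 5 had no read in any cell and 4 had a ratio, with 2 at least 2-fold higher in cIHCs, 1 lower, and a median of 2.16. Chrnb4, a ganglionic beta subunit, had reads in 5 OHCs, up to 199.9 CPM, and in 0 of 67 cIHCs, a log2 ratio of at most -10.86; 1 OHC held 57.5% of its counts. Chrnb2, a beta subunit of brain receptors, had reads in 2 OHCs and 24 cIHCs, at 7.32 and 8.39 CPM, and shares 1365 exon bases with Adar on the other strand, which held 2 and 3059 counts. Chrna4 and Chrna2 were each carried by 1 cIHC, with 330 and 117 counts.

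Of 13 genes for receptor assembly and anchoring, 6 were at least 2-fold higher in cIHCs, close to the 42.6% of all genes, and 1 was lower, with a median of 0.33. Tmie, a hair cell membrane protein of the mechanotransduction complex, was the lower one. It ran from 33.9 through 165.6 to 1139 CPM in OHCs and from 0 through 54.2 to 364.5 CPM in cIHCs, a pooled log2 ratio of -1.64 (-1.66 to -1.62). The chaperone gene Ric3 had 45.5 and 56.8 pooled CPM, and Unc50 98.5 and 123.5 pooled CPM, both within 2-fold. Tmem132d and Tmem132a were higher in cIHCs, at 31 against 7.05 CPM and 14.9 against 3.36 CPM; 1 OHC held 81.9% of the OHC counts of Tmem132d, and Tmem132a shares 33.9% of its exon bases with Slc15a3 on the other strand.

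Of 11 genes for partners of SK channels, 10 had a ratio and all 10 reached 10 CPM. At least 2-fold higher was 1 and lower were 2, beside 26.3% and 14.3% of all genes at that level, with a median of 0.21. Calm2 and Calm3 encode calmodulin, the calcium sensor of the channel. Their pooled levels in OHCs and cIHCs were 7614 and 10222 CPM for Calm2, and 371.8 and 425.4 CPM for Calm3. Both had reads in all 99 cells. The kinase subunit gene Csnk2a1 was higher in cIHCs at 41.4 against 19.1 CPM, and Csnk2a2 lower at 14.2 against 30.0 CPM. The phosphatase gene Ppp2cb was lower at 15.6 against 36.5 CPM, and Ppp2ca, which shares 39.9% of its exon bases with a noncoding gene on the other strand, stood at 182.9 and 186.0 CPM.

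Of 13 genes of calcium supply and of the large-conductance (BK) channel, 11 had a ratio. At least 2-fold higher were 4 and lower were 4, beside 42.6% and 18.8% of all genes, and the median was -0.27. Ryr2, a calcium release channel of internal stores, ran from 0 through 3.72 to 214.7 CPM in OHCs with reads in 24 of 32, while 5 of 67 cIHCs had reads; the pooled log2 ratio was -5.78 (-5.95 to -5.62). Cacna1d, the hair cell calcium channel gene, went from 706.0 pooled CPM in OHCs to 310.5 in cIHCs. Kcnma1, the pore of the BK channel, had 170.4 and 129.2 pooled CPM, Atp2a2 115.2 and 95.7, and the BK accessory gene Lrrc52 87.6 and 91.4. Kcnmb2, a beta subunit of BK channels, had no read in OHCs and reads in 19 cIHCs at a pooled 19.2 CPM, a log2 ratio of at least 10.60. Itpr1 and Ryr1, further release channels, had 0.145 and 5.20 CPM in OHCs against 13.0 and 12.3 CPM in cIHCs.

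A further list held 14 genes for other receptors of efferent transmitters, muscarinic ones included, and for receptor components. Of these 9 had a ratio, 4 were at least 2-fold higher, 3 lower, and the median was 0.23. Chrm3, the muscarinic M3 receptor for acetylcholine, had reads in 3 of 32 OHCs, up to 19.4 CPM. In cIHCs it ran from 3.34 through a median of 118.7 to 314.3 CPM, with reads in all 67 and 61 of them above the highest OHC. Its pooled level was 1.08 and 125.0 CPM, a log2 ratio of 6.85 (6.68 to 7.03). P2rx2, an ATP-gated channel, ran from 0 through 439.5 to 1358 CPM in OHCs and from 0 through 88.0 to 625.1 CPM in cIHCs, a pooled log2 ratio of -1.91 (-1.92 to -1.90). Gabbr1 and Crcp lay within 2-fold, at 29.3 and 34.3 CPM and at 40.3 and 44.7 CPM in the pooled OHCs and cIHCs.

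**Figure D5:**
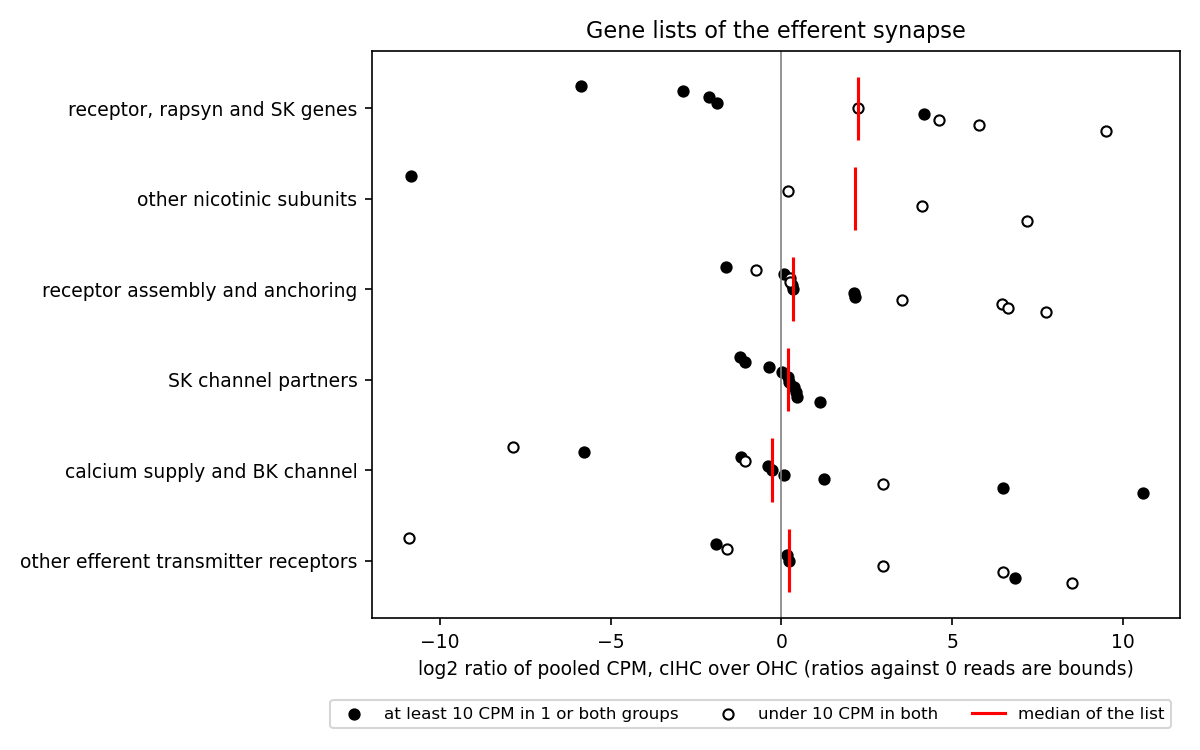
log2 ratio of pooled CPM, cIHC over OHC, of each gene with a ratio in 6 lists; filled points have at least 10 CPM in 1 or both groups and red lines are list medians. The receptor, rapsyn and SK genes lie on both sides of 0, while 7 of 10 SK channel partners lie within 2-fold.

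Genes were ranked by Spearman rho with each main gene, of log2(CPM + 1) over all 99 cells, among the 10041 genes with at least 10 CPM. The ranking includes the difference between the groups, so a high rho need not mean that levels moved together within a group. All values of a cell also share its depth. For Chrna10 the first 5 were Ankrd22 (rho 0.83), Meikin, Lbh, Gm5737 and Dnase1 (0.81), all lower in cIHCs. Within OHCs and within cIHCs, rho was 0.35 and 0.29 for Ankrd22, 0.09 and -0.07 for Meikin, and 0.01 and 0.04 for Lbh. It was 0.22 and 0.39 for Gm5737, and 0.38 and 0.26 for Dnase1. For Kcnn2 the first was 2310016D03Rik (0.74), followed by Slc26a5, Lbh and Proser2, and Chrna10 was in place 9 with 0.71. Within OHCs and within cIHCs, Kcnn2 had rho of 0.055 and 0.13 with Slc26a5, and -0.11 and 0.074 with Lbh. With Proser2 it had -0.12 and 0.18, and with Chrna10 0.11 and 0.10. With 2310016D03Rik it had 0.36 within OHCs, and that gene had no read in cIHCs. For Chrna9 rho was lower: Lhfpl5 had 0.61, followed by Strc, 1600022D10Rik, Ankrd22 and Gm5737, with Chrna10 in place 10 at 0.57 and Kcnn2 in place 117 at 0.45. Lhfpl5 had the highest rho of these within OHCs, 0.63 over 32 cells, and 0.21 within cIHCs. For Chrna1 the first 5 were Otof (0.70), Col27a1, Calb2, Syt6 and Osbpl11 (0.65), all higher in cIHCs.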

How the data were processed

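The authors deposited 1 table of whole-number read counts for 55291 gene symbols and 99 cells. HISAT2 2.2.1, StringTie 2.2.1, featureCounts 2.0.1 and the build mm10 are named per the submitters' processing notes, without roles, annotation, strand setting or filters. Counts were summed per group (each group 1 sample) and divided by the group total to give CPM. Differences are log2 ratios of pooled CPM. A ratio needed more than 3 counts in 1 or both groups, and a sum of 0 was set to 3 counts, which makes the ratio a bound. "Called" means past 2-fold; no test was made. Shares of cells were also taken at 10 CPM and after thinning cells to 5770000 reads (29 OHCs and 66 cIHCs). There were 0 columns of no sample and 0 identical pairs of cells. Exon lengths and overlaps come from GENCODE M21, which holds 96.4% of the symbols.

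The genes and lists were chosen with earlier results of these data known. From each list the 4 genes with the highest pooled CPM are named, plus genes past 2-fold with at least 10 CPM; for likeness, the first 5 genes for each main gene with at least 20 CPM. A gene that the likeness rule names and a gene that the list rule names are not reported here. Slc5a7, Slc18a3, Chat and the muscle genes given by name were chosen after their values were seen. Alternatives were other summaries over cells, scalings, totals and subsets of cells. On simulated data for the comparison of cIHCs with OHCs over 9172 genes, 98.6% of 72 genes changed 4-fold came back within 0.75 on the log2 scale. The simulation drew each cell independently, without differences between animals or PCR copies, and only for genes with at least 10 CPM over all cells. It checks the arithmetic and says nothing of genes read in few cells. Chrnb1, Chrnd, Chrng, Rapsn, Kcnn1 and Kcnn3 lay under its 10 CPM limit. Steps used Python 3.11.15, numpy 2.4.6, pandas 2.3.3, scipy 1.17.1, R 4.3.3 and edgeR 4.0.16 (TMM factors only).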

Additional observations from a re-analysis of the deposited data

How the results depend on the processing

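Of the 9 genes with a ratio, 8 kept their direction under every alternative that gave a value. Chrnd and Chrng, each read in 1 cIHC, had no value without the highest cells, so their direction was not put to that check. Per-cell medians gave a value for Chrna9 and Kcnn2 only. The filter of 10 CPM leaves the ratio of a gene unchanged. Chrna9 ran from -2.19 to -1.58, Chrna10 from -8.01 to -5.32, Kcnn2 from -3.16 to -2.25 and Chrna1 from 3.70 to 11.72. Kcnn1 was the exception, at least 4.33 among cells with Xist reads, where its 4 OHCs held no read and 5 of 55 cIHCs did. For a gene read in 3 of 32 OHCs, 4 OHCs are too few to set a direction. TMM and median-of-ratios scaling shifted all ratios by -0.19 and -0.20, shifts too small to turn any of these ratios. The median of 2.26 over the 9 genes was 0.36 (over 8 genes) when CPM was averaged over cells, 2.06 with TMM factors, 2.05 with median-of-ratios factors and 2.04 without cells with few genes. Per-cell medians turned it to -2.49, and it was -1.11 without the highest cell of each gene, -1.09 among cells with Y-linked reads and -2.14 for genes with at least 10 CPM, each over fewer genes. The count of 5 higher genes became 0, 3, 3 and 1 under these 4 settings in that order. It was 4 of 8 when CPM was averaged over cells and 6 among cells with Xist reads. The count of 4 lower genes became 2 under per-cell medians, 3 among cells with Xist reads and 3 at 4-fold in place of 2-fold. After thinning, every share of cells with reads lay within the interval of the unthinned share. That was a mild check, since cells were thinned to 5770000 reads from median totals of 7443782 in OHCs and 7757517 in cIHCs. No paired analysis was possible because replicate numbers here merely number the cells, and no test was made. Depth and 1 sample a group limit Chrnd, Chrng, Kcnn1 and Kcnn3, which rest on few cells.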

Other observations

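Over 67 cIHCs the level of Chrna1 followed that of Otof, the calcium sensor of the hair cell ribbon synapse, with a Spearman rho of 0.62 and a Pearson r of 0.55 for log2(CPM + 1), and r was 0.56 without the 2 cells farthest from the median of Chrna1. The Spearman coefficient was 0.59 over the 55 cIHCs with Xist reads and 0.80 over the 12 with Y-linked reads. Slc17a8, the vesicular glutamate transporter gene of the same synapse, had rho of 0.028 and r of 0.0064 with Chrna1 over the 67 cells. With Calb2, a cytosolic calcium buffer, rho was 0.55 over the 67 cells. With Tbx2 it was -0.55 over the 67 cells, -0.63 over the 55 and -0.32 over the 12. Chrna1 also had rho of -0.30 with total counts and -0.34 with the number of genes with reads. With the OHC markers Ocm, Slc26a5 and Ikzf2, Chrna1 had rho of 0.30, -0.20 and -0.33. Otof itself had rho of -0.37 with Tbx2 over the 67 cells, and a Pearson r of -0.25. The same cells gave rho near 0 for Chrna9 with Chrna10 (0.11) and for Chrna9 with Kcnn2 (-0.04). The values of a cell share its library and depth, cells may share an animal, and these relations were chosen after they were seen.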
